A study of Mus musculus with 4 samples.

Results

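The genes described here encode the subunits of the proteasome. They were taken as the probe sets annotated to a single gene whose symbol is Psma, Psmb, Psmc or Psmd followed by a number, leaving out the inducible immunoproteasome genes Psmb8, Psmb9 and Psmb10. That rule used no signal value and found 64 of the 22690 probe sets on the array, for 35 genes. The core particle holds 27 of them (15 Psma and Psmb genes) and the regulatory cap 37 (20 Psmc and Psmd genes).

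RNA of CD4 cells from mice homozygous for the sanroque variant (san/san) and from wild type mice (+/+) was measured on 4 Affymetrix MOE430A arrays, 2 per genotype. Sanroque is a recessive variant made by treating male C57BL/6 mice with the mutagen ENU; it was found through progeny that carried antinuclear autoantibodies by 12 weeks of age, and it lies in Rc3h1, the gene of the RNA-binding protein Roquin-1. The sources used here give no age for the mice whose cells were measured. The variant is in the germline, so no cell type of the san/san mice is free of it. Array 1 of each genotype was hybridised and scanned on 1 day and array 2 of each on another, per the file headers. The headers describe the day 1 RNA as coming from sorted T cells, and the letters CBA stand in that of +/+ array 2 without explanation; an effect of strain background cannot be told apart from the variant. No probe set was named Rc3h1, so the mutated gene is not analysed here. Whether arrays of the same genotype came from different mice is not stated, and the p-values therefore reflect array-to-array spread that may be technical.

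The proteasome is the protease of the cytosol and nucleus that degrades proteins tagged with ubiquitin. Its core is a barrel of stacked rings, in which the alpha subunits (Psma) gate the entrance and the beta subunits (Psmb) line the chamber, where Psmb5, Psmb6 and Psmb7 carry the chymotrypsin-like, caspase-like and trypsin-like active sites. The cap binds the barrel's ends: a ring of ATPases (Psmc) unfolds the substrate, and non-ATPase subunits (Psmd) bind and remove ubiquitin or hold the lid together. Lymphocytes use the proteasome to turn over regulators of signalling and the cell cycle and to make peptides for MHC class I.

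Across both particles the san/san arrays differed little from +/+, with a single exception. One of the 2 probe sets of Psmd6, which encodes a subunit of the cap's lid, rose in san/san to 124.3 ± 14.4 array signal units, against 23.1 ± 9.26 in +/+ (SD, n = 2 each), while the other Psmd6 probe set read 474.2 ± 38.5 in san/san and 442.6 ± 22 in +/+. Of the 64 probe sets, 52 for 34 genes were bright enough to be tested, and 1 of these passed the test, higher in san/san. Over all probe sets tested the share that passed was 1.06%, with 0.67% higher and 0.39% lower; at an unadjusted p under 0.05 it was 9.89%. None of the 21 tested core probe sets passed (0 at an unadjusted p under 0.05), and 1 of 31 cap probe sets did (3 at an unadjusted p under 0.05). The test was limma on log2(signal + 6), two-sided, with Benjamini-Hochberg adjustment across the 13585 probe sets bright enough and a call at an adjusted p under 0.05.

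The stretch upstream of Psmd6 is shown because both Psmd6 probe sets are annotated to this gene, for which RefSeq lists 1 transcript. Those of Psmb5, in the core, and Psmd9, in the cap, are shown beside it as 2 of the 5 member genes with a match to TGACNNNGC, a pattern of the kind bound by Nfe2l1, the factor that induces proteasome genes when proteasome activity drops. Each run is the 250 bases before the start of the gene in RefSeq's table for build GRCm38.p6, 5′ to 3′ on the gene's strand, with capitals for a match on either strand to TGACNNNGC or to CCGGAAG, a core of the sites of ETS factors.
Psmd6, chr14:14120946-14121195, minus strand: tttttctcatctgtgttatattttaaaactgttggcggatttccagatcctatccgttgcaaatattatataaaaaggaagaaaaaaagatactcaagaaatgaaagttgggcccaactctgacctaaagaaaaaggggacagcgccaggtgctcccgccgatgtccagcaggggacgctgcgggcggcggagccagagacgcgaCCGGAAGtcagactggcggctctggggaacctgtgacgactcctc
Psmb5, chr14:54617996-54618245, minus strand: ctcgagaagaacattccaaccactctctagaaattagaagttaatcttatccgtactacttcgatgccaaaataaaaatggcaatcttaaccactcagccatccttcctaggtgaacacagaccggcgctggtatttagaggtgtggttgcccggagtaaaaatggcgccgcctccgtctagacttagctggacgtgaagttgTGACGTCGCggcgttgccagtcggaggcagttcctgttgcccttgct
Psmd9, chr5:123227940-123228189, plus strand: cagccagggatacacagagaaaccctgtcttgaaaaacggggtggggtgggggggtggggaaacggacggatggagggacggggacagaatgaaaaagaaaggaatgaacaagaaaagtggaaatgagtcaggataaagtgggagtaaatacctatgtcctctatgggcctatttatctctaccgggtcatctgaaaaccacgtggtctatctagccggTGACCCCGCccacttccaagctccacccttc

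The promoter table held 30 such windows for 28 of the 35 member genes. CCGGAAG was found in 10 of them (33.3%), against 6.91% of all 32851 windows in the table, and the 9 genes were Psma6, Psmc1, Psmc2, Psmc6, Psmd2, Psmd4, Psmd6, Psmd11 and Psmd12. TGACNNNGC was found in 5 windows (16.7%, against 10.2% of all), those of Psmb5, Psmb6, Psmc6, Psmd9 and Psmd12. By brightest probe set, the log2 fold changes of Psmb5 and Psmd9, whose windows are shown, were 0.27 and -0.57. Those of Psmb6, Psmc6 and Psmd12 were -0.02, -0.06 and -0.07, so a match did not go with a larger change in each gene. A match is a run of letters and not a shown binding site, and the motifs were chosen with the signals known.

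The Psmd6 probe set that rose, whose name ends in _a_at, had signals of 134.5 and 114.2 on san/san arrays 1 and 2, against 29.6 and 16.5 on +/+ arrays 1 and 2. Both san/san arrays lay above both +/+ arrays, and +/+ array 2 lay under the mean signal of 21.3 that a probe set needed to be tested. The change was 2.20 on the log2(signal + 6) scale with a standard error of 0.287 (95% interval 1.57 to 2.83, limma adjusted p = 0.0038), and it was 1.98 on day 1 and 2.42 on day 2. It ranked 17 by size of increase among all probe sets tested. With the day as a block the limma adjusted p was 2.45e-08. No other proteasome probe set passed with the block, while 6.27% of all probe sets tested did. The call of the _a_at set ended without the filter on dim probe sets (limma adjusted p = 0.0579) and without the variance trend (0.0501). The change is 2.20 in both by construction, since neither setting enters it.

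The other Psmd6 probe set, whose name ends in _at, read 447.0 and 501.5 on the san/san arrays, against 458.1 and 427.0 on the +/+ arrays, so the genotypes overlapped. Its log2 fold change was 0.10 (standard error 0.171, 95% interval -0.28 to 0.47, limma adjusted p = 0.929). The 2 days gave -0.03 (day 1) and 0.23 (day 2). The interval leaves room for a modest rise of Psmd6 and lies wholly below that of the _a_at set. Both probe sets are annotated to the same cDNA. By Affymetrix naming, the ending _a_at marks a set whose probes match alternative transcripts of a gene, and _at a set meant to be specific to its target.

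The Psmd6 probe sets were set against each other on each array, as log2(signal + 6) of the _a_at set minus that of the _at set. This difference was -1.69 and -2.08 on the san/san arrays, against -3.70 and -4.27 on the +/+ arrays. As a share, the signal of the _a_at set was 30.1% and 22.8% of that of the _at set in san/san and 6.46% and 3.86% in +/+; since signals of separate probe sets have no common scale, only the change between genotypes can be read. The genotypes differed by 2.10, by 2.02 on day 1 and by 2.19 on day 2. The exact two-sided permutation test gave p = 0.333, the smallest that 2 arrays against 2 allow. Among all genes with over 1 tested probe set, 0.306% (9 of 2945) had probe sets whose log2 fold changes lay as far apart as those of Psmd6 or farther. The Psmd6 comparison was chosen with earlier results of these data known, so this share is a description and not a test.

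**Figure D1:**
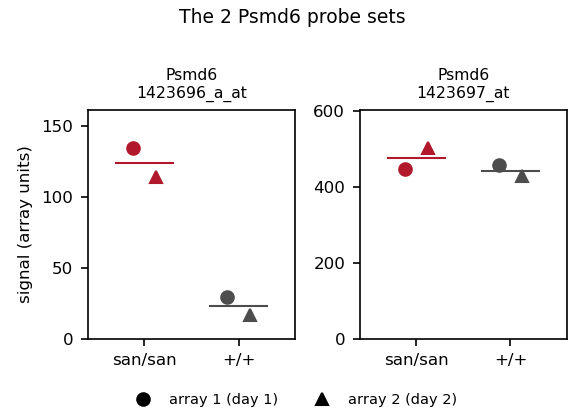
Signal (array units, linear axis from 0, a scale of its own in each panel) of the 2 Psmd6 probe sets on each san/san and +/+ array; circles are day 1, triangles day 2, and bars the mean of 2 arrays. The left probe set reads 134.5 and 114.2 in san/san, against 29.6 and 16.5 in +/+, and the genotypes overlap in the right one.

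The protein-coding genes next to Psmd6 on chromosome 14 that are named on the array were examined after the Psmd6 values were seen. Thoc7 and Atxn7 both lie on 1 side of Psmd6. The nearest genes on the other side, Olfr720 and Olfr31, are not named on the array, so that side was not measured. Thoc7, a subunit of the THO complex of mRNA export, had signals of 304.2 and 264.8 in san/san, against 270.2 and 220.6 in +/+ (log2 fold change 0.21, limma adjusted p = 0.814). Atxn7, a subunit of the SAGA chromatin complex, had 22.9 and 35.7 in san/san, against 37.8 and 55.9 in +/+ (log2 fold change -0.58, limma adjusted p = 0.652). Neither passed the test. Thoc7 had the sign of the Psmd6 _a_at set on both days (0.17 on day 1 and 0.26 on day 2), and Atxn7 had the opposite sign. A second Thoc7 probe set, too dim to be tested, read 7.1 and 0.6 in san/san, against 12.2 and 3.1 in +/+.

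The subunits are described next by their place in the particle. Over the 21 tested core probe sets the median log2 fold change was 0.05, with 12 above 0 and 9 below, and over the 31 cap probe sets it was -0.07, with 10 above 0 and 21 below. Over all probe sets tested it was 0.01. The cap counts include the _a_at set of Psmd6, and without it the cap median was -0.07, with 9 above 0 and 21 below. They also include the assembly chaperones Psmd5, Psmd9 and Psmd10, whose 3 tested probe sets lay below 0. The non-ATPase cap genes without these chaperones had a median of -0.04, with 8 above 0 and 11 below. The difference between core and cap was not tested. On the single arrays the median log2(signal + 6) of the core was 8.82 and 8.85 in san/san, against 8.64 and 8.73 in +/+, and that of the cap was 7.72 and 7.89 in san/san, against 7.86 and 8.09 in +/+. The core medians of both san/san arrays lay above those of +/+, and the cap medians overlapped. The 2 days did not agree for the core, where the median change was 0.12 on day 1 and -0.03 on day 2, and for the cap it was -0.07 on day 1 and -0.05 on day 2. Without +/+ array 1 the core median turned to -0.06, and without +/+ array 2 it was 0.12. The cap median turned to 0.03 without san/san array 1 and to 0.02 without +/+ array 2.

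**Figure D2:**
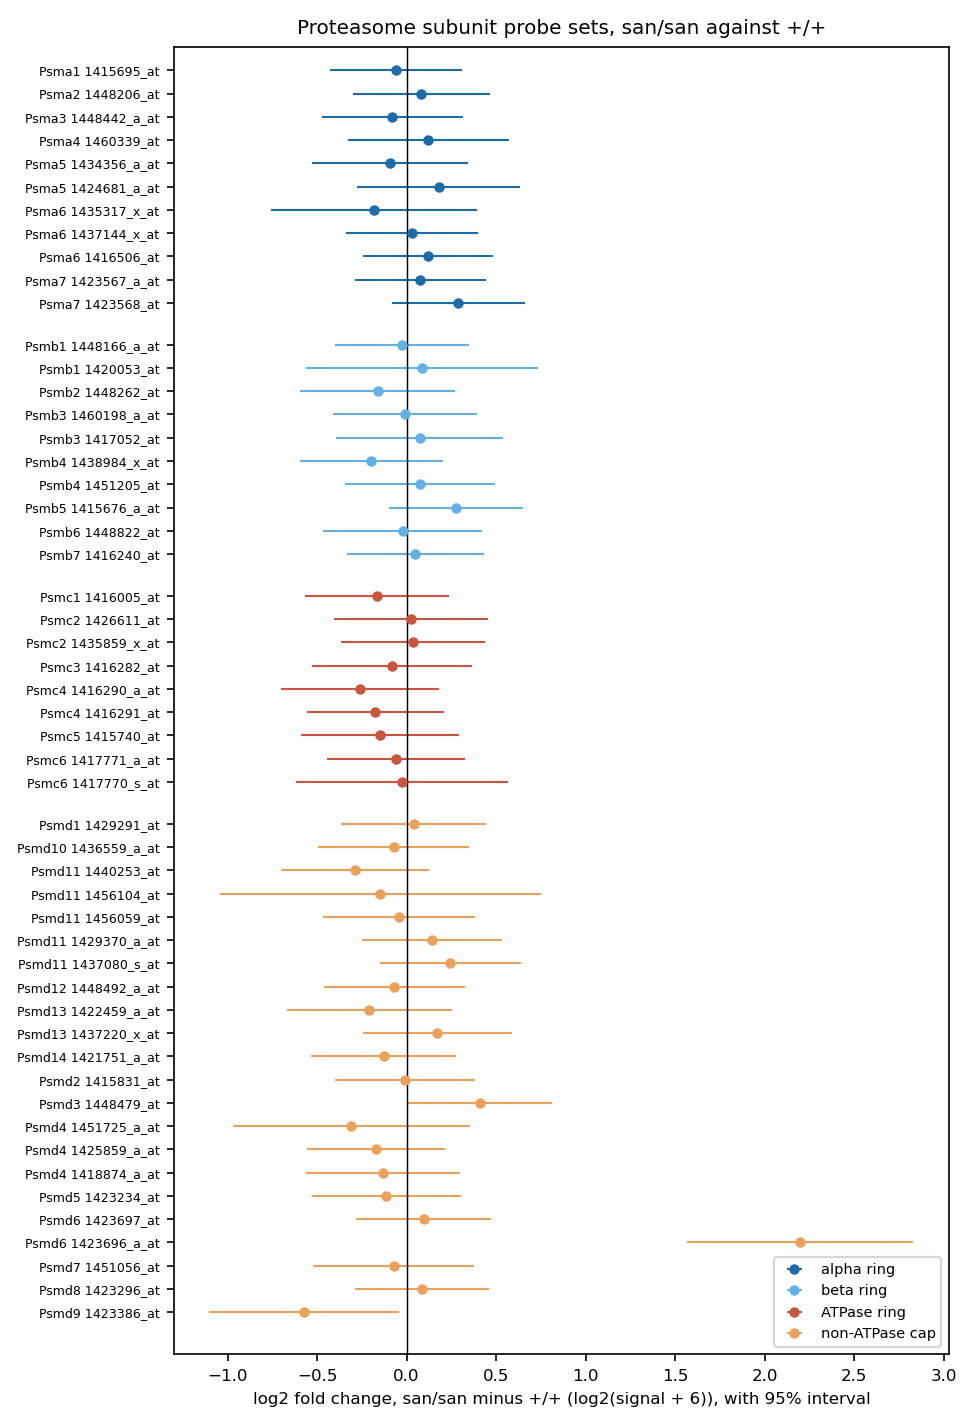
Log2 fold change of san/san minus +/+ (x axis, on the log2(signal + 6) scale) for the 52 tested proteasome probe sets, by ring and cap part; points are limma estimates and lines their 95% intervals. The point of the _a_at set of Psmd6 is at 2.20, and all other points lie between -0.57 and 0.41.

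The alpha ring was measured by 11 tested probe sets for 7 genes, and none passed the test (0 with the day as a block). Their log2 fold changes ran from -0.18 to 0.29, with a median of 0.08. By the brightest probe set of each gene, Psma7, one of the gate-forming subunits, had the highest value: its signals were 480.2 and 481.1 in san/san, against 378.9 and 405.8 in +/+ (log2 fold change 0.29, 95% interval -0.08 to 0.66, limma adjusted p = 0.647). Its second probe set had 414.0 and 410.3 in san/san, against 392.5 and 388.4 in +/+, a log2 fold change of 0.08. For both Psma7 probe sets each san/san array lay above each +/+ array. Psma4 followed with 0.12 (481.4 and 550.3 in san/san, against 395.1 and 565.2 in +/+). At the low end, Psma5 had -0.09 (280.8 and 346.0 in san/san, against 292.1 and 379.5 in +/+), while its other tested probe set had 0.18 (231.3 and 321.5 in san/san, against 218.8 and 263.6 in +/+). Psma3 had -0.08 (1000.4 and 1030.7 in san/san, against 973.0 and 1184.1 in +/+). The genotypes overlapped in these 3 genes. Psma8, the alpha subunit of the testis proteasome, read 11.2 and 5.7 in san/san, against 11.3 and 4.0 in +/+, too dim to be tested. It was the 1 member gene with no tested probe set.

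The beta ring was measured by 10 tested probe sets for 7 genes, and none passed the test (0 with the block). The catalytic subunit Psmb5, the chymotrypsin-like site and the target of bortezomib, had 418.8 and 437.3 in san/san, against 337.2 and 369.6 in +/+. Both san/san arrays lay above both +/+ arrays, with a log2 fold change of 0.27 (95% interval -0.10 to 0.65, limma adjusted p = 0.679). Psmb6, the caspase-like site, read 295.8 and 384.4 in san/san, against 303.4 and 386.7 in +/+ (log2 fold change -0.02, 95% interval -0.46 to 0.42, adjusted p = 0.987). Within each genotype the Psmb6 signal was higher on day 2 than on day 1. Psmb7, the trypsin-like site, read 934.5 and 898.3 in san/san, against 821.7 and 956.1 in +/+ (log2 fold change 0.05, 95% interval -0.33 to 0.43, adjusted p = 0.971). For each of the 3 catalytic subunits the interval excludes a change of 2-fold either way.

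Of the structural beta subunits, Psmb4 had 0.07 by its brightest probe set (1080.5 and 979.9 in san/san, against 854.0 and 1117.6 in +/+). Its other tested probe set had -0.20 (300.3 and 245.8 in san/san, against 304.3 and 320.9 in +/+), with no overlap. Psmb2 was lowest with -0.16 (266.1 and 220.4 in san/san, against 239.8 and 307.5 in +/+), and Psmb1 had -0.03 (911.8 and 949.8 in san/san, against 907.1 and 990.3 in +/+). The arrays of the genotypes overlapped in the brightest probe sets of these 3 genes.

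The ATPase ring, which drives unfolding and opens the gate of the core, was measured by 9 tested probe sets for 6 genes. None passed the test (0 with the block); 7 lay below 0 and 2 above, with a median log2 fold change of -0.08 and a range of -0.26 to 0.03. Psmc4 was lowest: 325.4 and 231.6 in san/san, against 316.5 and 344.9 in +/+ (log2 fold change -0.26, 95% interval -0.70 to 0.18, limma adjusted p = 0.764). San/san array 2 alone was low in this brightest probe set, and the change was 0.04 on day 1 and -0.56 on day 2. The other tested Psmc4 probe set read 202.7 and 205.1 in san/san, against 225.6 and 236.1 in +/+. There the genotypes did not overlap, and san/san was lower on both days (log2 fold change -0.17). Psmc1 had 154.4 and 155.1 in san/san, against 183.0 and 166.1 in +/+ (-0.17, adjusted p = 0.871), with no overlap. Psmc2 was highest with 0.03 (742.8 and 579.4 in san/san, against 655.5 and 625.6 in +/+), followed by Psmc6 with -0.06 (332.6 and 375.1 in san/san, against 348.8 and 389.8 in +/+).

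The non-ATPase cap genes gave 22 tested probe sets for 14 genes, of which 1, that of Psmd6, passed. Psmd3, a lid subunit, had 199.9 and 184.5 in san/san, against 139.7 and 146.5 in +/+. Its san/san arrays lay above both +/+ arrays; the log2 fold change was 0.41 (95% interval 0.01 to 0.81), which did not pass over all probe sets (limma adjusted p = 0.492, 0.147 with the block). Psmd9, which in cells is not part of the finished cap but a chaperone of ATPase ring assembly, was lowest, with 62.3 and 45.9 in san/san, against 85.4 and 79.7 in +/+. Both san/san arrays lay below both +/+ arrays, with a log2 fold change of -0.57 (95% interval -1.10 to -0.04) and a limma adjusted p of 0.459 (0.0972 with the block). The other 2 assembly chaperones of this kind had -0.07 (Psmd10, also known as gankyrin) and -0.11 (Psmd5). Psmd13, a lid subunit, had -0.21 by its brightest probe set (142.0 and 184.2 in san/san, against 165.3 and 213.1 in +/+) and 0.17 by another, with limma adjusted p of 0.853 and 0.871.

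Subunits that handle ubiquitin were among those that did not pass. Psmd4, a ubiquitin receptor, had -0.31, -0.17 and -0.13 by 3 probe sets, with limma adjusted p from 0.844 to 0.912. Psmd14, the lid's deubiquitinase, had -0.13 (adjusted p = 0.908). The large scaffold subunits Psmd1 and Psmd2 had 0.04 and -0.01.

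**Figure D3:**
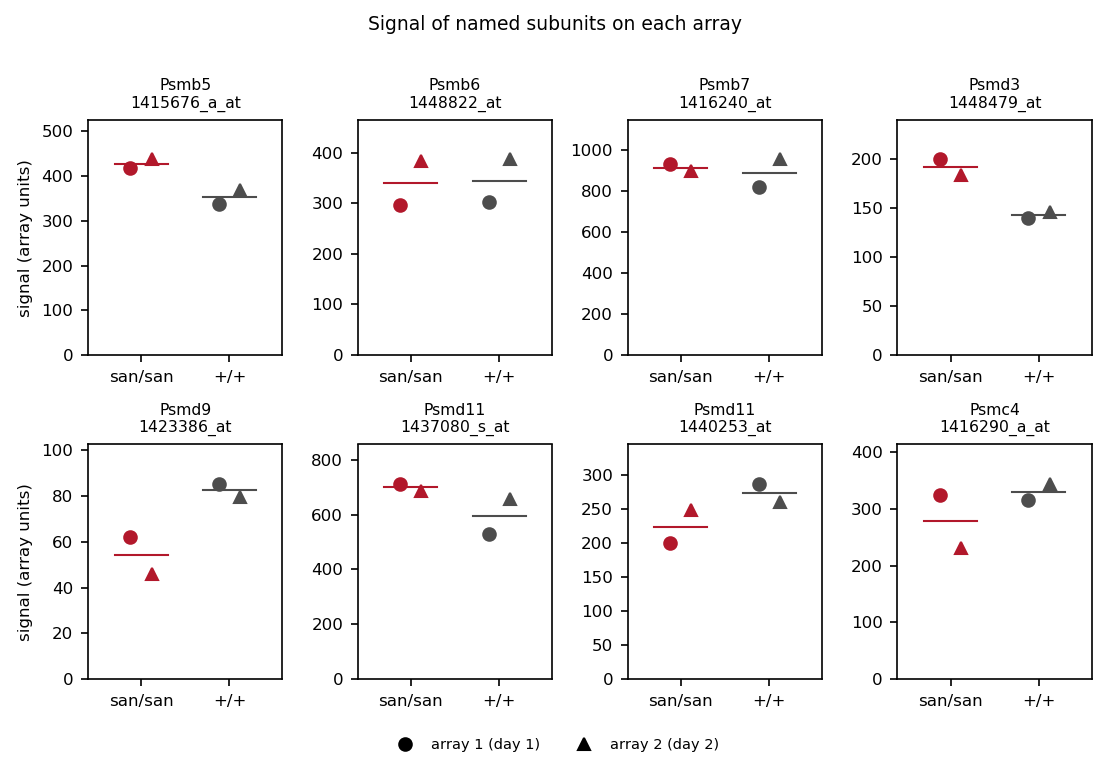
Signal (array units, linear axes from 0, a scale of its own in each panel) of 8 named probe sets on each san/san and +/+ array; circles are day 1, triangles day 2, and bars the mean of 2 arrays. Psmb5 and Psmd3 have both san/san arrays above +/+, Psmd9 has both below, and in Psmb6 the days differ more than the genotypes.

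Among the 13 member genes with over 1 tested probe set, 2 had probe sets whose log2 fold changes lay over 0.5 apart, against 25.9% of all 2945 such genes on the array. They were Psmd6, and Psmd11 with a gap of 0.53; the median gap of the 12 genes other than Psmd6 was 0.19. Psmd11, a lid subunit, had 5 tested probe sets. Its brightest, named _s_at, read 712.8 and 686.5 in san/san, against 530.1 and 657.3 in +/+ (log2 fold change 0.24, limma adjusted p = 0.751), and the ending _s_at marks probes shared with other sequences. The lowest, an _at set, read 199.7 and 248.3 in san/san, against 287.3 and 260.0 in +/+ (-0.29, adjusted p = 0.696). The genotypes did not overlap in either, with opposite signs.

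In 19 of the 52 tested member probe sets the arrays of the genotypes did not overlap, 11 with san/san above and 8 with san/san below. Over all probe sets tested 38.7% did not overlap, 20.9% with san/san above and 17.7% below, so the member counts lie near the background. The sizes were small: 2 members, the _a_at set of Psmd6 and Psmd9, differed by over 0.5 in size, against 13.5% of all probe sets tested. The median size of the log2 fold change was 0.10 for the members and 0.20 for all probe sets tested. The 95% interval lay within a 1.5-fold change either way for 33 of 52 members (24.5% of all tested) and within 2-fold for 49 (73.5% of all). The members are also brighter than most, with a median log2(signal + 6) of 8.25 to 8.50 on the 4 arrays, against 6.59 to 6.69 over all probe sets tested; the part of brightness in these narrow intervals was not tested.

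Differences between the days were of the same order as those between genotypes. Any difference in cell preparation between the arrays of the 2 days cannot be told apart from the day of hybridisation. The median size of the day 2 minus day 1 difference was 0.14 on the log2 scale, and it exceeded the genotype difference in 29 of 52 members (55.8%), near the 52.3% of all probe sets tested. Of the 52, 37 were higher on day 2 (71.2%, against 43.8% of all). The genotype difference had opposite signs on the 2 days in 21 of 52 (40.4%), near the 38.2% of all.

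**Figure D4:**
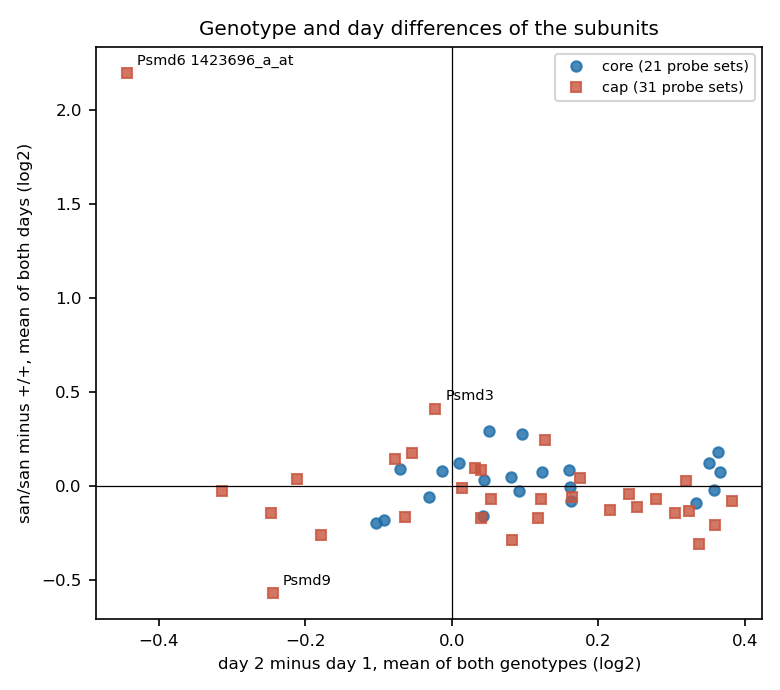
Each tested proteasome probe set by its day 2 minus day 1 difference (x axis, log2, mean of both genotypes) and its san/san minus +/+ difference (y axis, log2, mean of both days); circles are core and squares cap. The _a_at set of Psmd6 stands at 2.20 on the y axis and the other points between -0.57 and 0.41, while most points lie right of 0, higher on day 2.

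The 12 member probe sets too dim to be tested had signals of 1.3 to 30 on single arrays. The nearest to the filter of 21.3 had mean signals of 26.85 among those tested and 16.95 among those left out. Except for Psma8, each belonged to a gene with another tested probe set.

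Of 35 other genes of the pathway, 26 were named on the array by 50 probe sets, 43 of them tested. None passed the test, either higher or lower. At an unadjusted limma p under 0.05 there were 8 of the 43, against 9.89% of all probe sets tested. With the day as a block 6 passed, all lower, for 4 genes, against 6.27% of all probe sets tested. Zfand2a, a heat-shock-inducible protein that binds the proteasome, accounted for 3 of the 6. Its brightest probe set read 63.9 and 91.3 in san/san, against 161.9 and 153.7 in +/+ (log2 fold change -0.99, limma adjusted p = 0.0692, 0.000523 with the block). The Zfand2a set named _s_at had -0.98 (adjusted p = 0.126, 0.00304 with the block), and the remaining tested _at set had -0.90 (0.433, 0.034 with the block). Another Zfand2a set, too dim to be tested, read 9.3 and 1.1 in san/san, against 8.5 and 16.1 in +/+, so the genotypes overlapped there. In all 3 tested sets both san/san arrays lay below both +/+ arrays, although on day 1 the difference in the remaining tested _at set was -0.07. Without san/san array 2 the brightest set passed (adjusted p = 0.0376), and without san/san array 1 so did the remaining _at set (0.0361); the lone san/san array was then assumed to vary like the +/+ arrays. The difference in the remaining _at set was -1.50 without san/san array 1 and -0.31 without san/san array 2.

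Akirin2, which carries the proteasome into the nucleus, read 308.1 and 528.6 in san/san, against 606.3 and 706.4 in +/+ (log2 fold change -0.69, limma adjusted p = 0.332, 0.00351 with the block). For Akirin2 it was -0.30 without san/san array 1 and -1.07 without san/san array 2. Psmg2, a chaperone of alpha ring assembly, read 113.6 and 176.4 in san/san, against 216.1 and 232.1 in +/+ by its _a_at set (-0.64, adjusted p = 0.334, 0.0165 with the block), and its other set had -0.12. The Psmg2 value of -0.64 was -0.33 without san/san array 1 and -0.94 without san/san array 2. Zfand5, a protein that activates the proteasome, read 25.0 and 38.4 in san/san, against 47.7 and 80.2 in +/+ by its dimmest set (-0.87, adjusted p = 0.387, 0.0251 with the block). That value was -0.53 without +/+ array 2 and -1.22 without +/+ array 1. Its 2 brighter sets had -0.34 and 0.45, so the Zfand5 sets did not share a sign.

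The immunoproteasome genes Psmb8, Psmb9 and Psmb10, whose products replace the catalytic beta subunits, had log2 fold changes of 0.06, 0.06 and -0.01. Psmb8 read 1236.8 and 1441.7 in san/san, against 1142.6 and 1431.0 in +/+ (limma adjusted p = 0.967). Psme1, a subunit of the interferon-inducible activator of the core, had 0.03, and Pomp, the maturation factor of the core, 0.04. Nfe2l1, the inducer of proteasome genes, read 105.7 and 83.9 in san/san, against 92.2 and 65.5 in +/+ (0.26, adjusted p = 0.825); the genotypes overlapped, and on both days san/san was higher. Psme2 was not named by a single-gene probe set and is not analysed here.

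**Figure D5:**
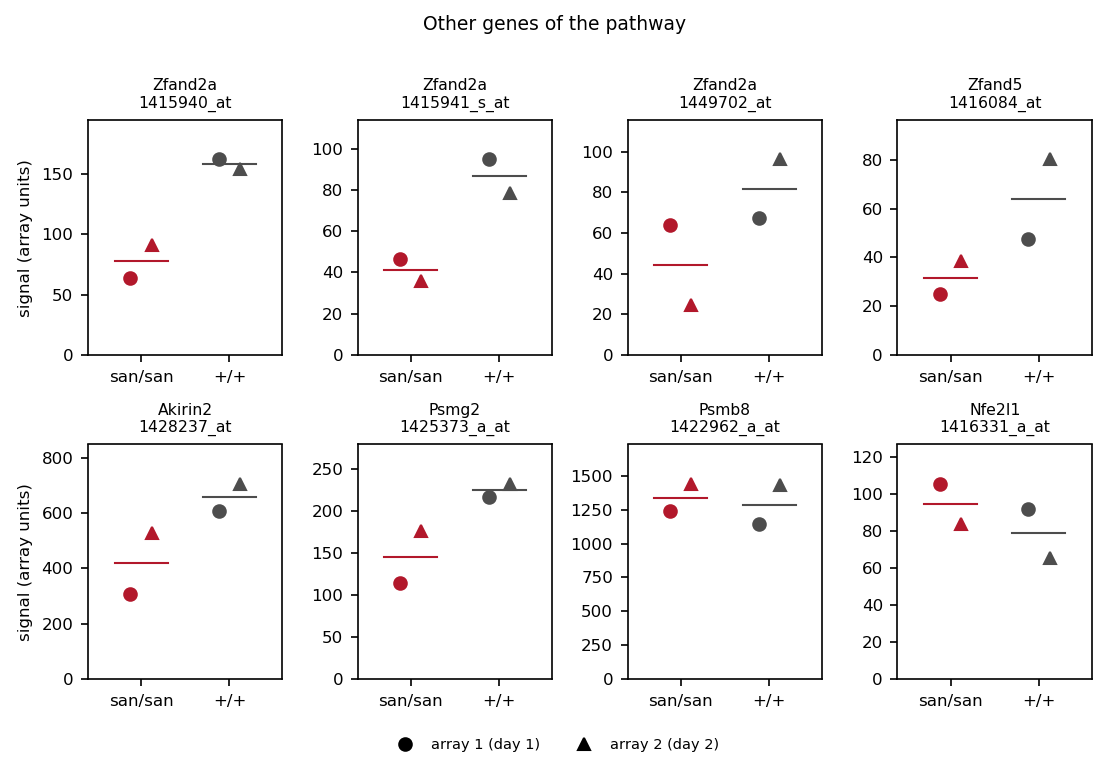
Signal (array units, linear axes from 0, a scale of its own in each panel) of 8 probe sets of other pathway genes on each san/san and +/+ array; circles are day 1, triangles day 2, and bars the mean of 2 arrays. In the 6 panels of Zfand2a, Zfand5, Akirin2 and Psmg2 both san/san arrays lie below both +/+ arrays, and in Psmb8 and Nfe2l1 they overlap.

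The CD4 cell label was checked against marker genes by their brightest probe sets. All 6 listed T cell markers (Cd4, Cd3d, Cd3e, Cd3g, Cd5 and Cd28) were measured, and none passed the test. Their summed signal was 7389 and 8079 in san/san, against 7961 and 8631 in +/+. Cd4 itself made up a small part of that sum, with 585.9 and 570.2 in san/san, against 533.3 and 613.5 in +/+. Of 6 myeloid markers 4 were higher in san/san (Lyz2, Ngp, S100a8 and S100a9), with a summed signal of 2382 and 2418, against 1028 and 1118 in +/+, and Itgam was dim with 8.9 to 18.8 across the arrays. Csf1r, another of the 6, passed with the day as a block alone (limma adjusted p = 0.369, 0.0389 with the block). All 3 cycling markers (Mki67, Rrm2 and Top2a) were higher, with a sum of 322.4 and 334 in san/san, against 97.9 and 105.6 in +/+; their calls ended without the filter on dim probe sets (limma adjusted p from 0.0872 to 0.132). None of 2 CD8 T cell or 4 B cell markers passed; their sums were 105.7 to 124.2 and 1015 to 1091 in san/san, against 92.6 to 101.2 and 1010 to 1098 in +/+. Of the red cell markers Alas2 was tested and had 905.2 and 1027.4 in san/san, against 604.4 and 637.4 in +/+ (limma adjusted p = 0.152, 0.0038 with the block). No marker was at 0 on any array. The part of myeloid and cycling cells in the rise of the _a_at set of Psmd6 was not tested, and in such bulk RNA fewer cells of a type and less RNA per cell cannot be told apart.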

How the data were processed

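The deposited intensity values (linear, 1 for every probe set in each array) were taken as the authors left them, for 22690 probe sets of the MOE430A chip named in the file headers. Trimmed means (from the 2% to the 98% percentile) lay between 99.59 and 99.97 on the 4 arrays, and medians between 30.8 and 40.4. Which summarising algorithm and background correction made them is not stated in those sources, and detection calls were not used. Precision is limited by the number of arrays.

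Genotype and replicate number came from the sample titles. Same-numbered arrays share a hybridisation day per the file headers, so the numbers pair the arrays; deviations from the genotype mean correlated with 0.391 between same-numbered arrays, from 2 pairs. Signals were analysed as log2(signal + 6), 6 being the 20th percentile of all values, rounded, an offset that shrinks the changes of dim genes. Controls (64) and probe sets averaging under the 40th percentile (21.3) were dropped, leaving 13585. Limma 3.58.1 in R 4.3.3 (lmFit, eBayes with a variance trend) had no covariates; p-values were adjusted by Benjamini-Hochberg over all probe sets tested. Symbols came from the platform annotation, updated by gene identifier; 20380 probe sets had 1 symbol, 691 several and 1555 none. The fit was tested on simulated data.

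The members, the list of other pathway genes, the markers and the tests were chosen with earlier results of these data known. Named with values were the Psmd6 probe sets, Psmb5, Psmb6 and Psmb7, the 2 highest and 2 lowest genes of each ring or cap group by brightest probe set, members past the test with or without the block, genes whose probe sets differed by over 0.5, and among other pathway genes those past either test and Psmb8, Psmb9, Psmb10, Psme1, Psme2, Pomp and Nfe2l1. Other members could be named with their log2 fold changes within a group, as was done for Psmd1, Psmd2, Psmd4, Psmd5, Psmd10 and Psmd14. Alternatives were quantile normalization, median centring, a pseudocount of 1 or 24, no filter, a filter at the 60th percentile, a fit lacking the variance trend, the replicate number as a block, each array left out, and 1 value per gene. Plots used matplotlib 3.10.9 (Python 3.11.15).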

Additional observations from a re-analysis of the deposited data

How the results depend on the processing

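The replicate block, which pairs the arrays by day, raised the count of all probe sets past the test from 144 to 852 and that of other pathway probe sets from 0 to 6, and kept the count of proteasome probe sets at 1; it changed no call of a proteasome probe set. Without the filter the counts were 56 for all and 0 for the proteasome, and without the variance trend 45 and 0. Leaving out each array gave 109 to 360 for all, with the highest without +/+ array 1, 1 for the proteasome under each, and 0 to 1 for the other pathway genes. The core median log2 fold change ran from -0.0611 to 0.125 and the cap median log2 fold change from -0.16 to 0.0259 when each array was left out, so neither has a settled sign; the cause was not tested. Between the Psmd6 probe sets, difference of log2 fold changes (2.10) ran from 1.57 with a pseudocount of 24 to 2.38 without +/+ array 1, above 0 under each alternative tried. The _a_at set of Psmd6 had 1.67 to 2.53 (limma adjusted p from 2.45e-08 to 0.0579) and its _at set 0.02 to 0.18 (0.794 to 1) over the 12 alternatives. Of 1131 values of single probe sets under an alternative, 72 differed in sign from the value reported, none of them past the test in either; 2 fell short where the reported value passed, both for the _a_at set of Psmd6, and 8 passed where it had not, 6 of them with the block.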
